A study of Mus musculus with 4 samples.

Results

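Zbp1, Bst2, Ly6e, Isg15, Usp18, Herc6, Parp14, Ifi27l2a, Xaf1 and Samd9l are interferon-stimulated effector genes that lie as single loci rather than in the large interferon-stimulated gene clusters. They were chosen by measured values, the accessibility of the same 4 libraries described here, so their gained and higher peaks are given as a description and without a test. The 10 genes were taken from 21755 protein-coding genes annotated on chromosomes with peaks. Every peak that overlapped a gene body or the 10 kb on either side was listed, which gave 143 peaks in 43 merged regions out of 71243 regions in all. ATAC-seq, which marks open chromatin by insertion of sequencing adapters with a transposase, had been done on bone marrow-derived macrophages (BMDMs), a macrophage culture raised from the bone marrow of mice. The growth protocol in the labels is culture in L929-conditioned medium for 6 to 8 days, and the labels name no interferon or other stimulus for any library. WT BMDMs (2 libraries) came from mice with the floxed H3f3a fl/fl and H3f3b fl/fl alleles and no Cre. H3.3 cKO BMDMs (2 libraries) came from mice with the same floxed alleles and LysM cre/cre, a Cre knock-in at Lyz2 that is active in myeloid cells. H3f3a and H3f3b both encode the replication-independent histone variant H3.3, and the study describes the deletion of H3f3b as complete in some samples and partial in others. No WT library carried Cre, so loss of H3.3 and presence of Cre cannot be told apart.

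Type I interferons bind the receptor IFNAR1/IFNAR2, which activates the kinases JAK1 and TYK2. The kinases activate the transcription factor complex ISGF3, which includes STAT2 and IRF9 and binds the interferon-stimulated response element (ISRE) in target promoters. Macrophages keep many of these genes ready for rapid induction, and their products block viruses, modify proteins with ISG15, or trigger cell death.

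Each deposited peak list had been called on 1 library, so a percentile was used to compare lists. The percentile is the share of the peaks of the same list with a smaller or equal area, where the area is the signal the peak caller summed over the peak and grows with both height and width. The 4 lists held 51955 to 64939 peaks covering 28.4 to 35.2 Mb. In both genotypes the list of replicate 2 was the longer one, and over the 44820 regions called in all 4 lists the median percentile of replicate 2 exceeded that of replicate 1 by 4.55 in WT and by 4.63 in cKO. The H3f3a region over exon 2 (chr1:180811715-180812055, mm10), the exon flanked by loxP sites, was at percentiles 5.02 and 19.1 in WT and had no peak in either cKO list. The H3f3b region over the first exons of that gene (chr11:116023771-116024892), which are also floxed, was lower but still called, at 94.2 and 95.5 in WT against 87.0 and 81.4 in cKO. Of 10 macrophage marker genes, 9 had a promoter peak in every list, and Spi1 had none. The median percentile of these 9 was 82.5 and 89.0 in WT against 75.3 and 79.1 in cKO. Of 15 marker genes of other cell types, 3 (Ms4a1, Siglech and Pecam1) had a promoter peak in every list and 10 in none. Ly6g, a neutrophil marker, had one in the cKO lists only, at 30.3 and 17.8, and the promoter of Siglech, a marker of plasmacytoid dendritic cells, was at 10.9 and 31.9 in WT against 43.2 and 55.5 in cKO. Ms4a1 was at 3.56 and 23.5 in WT against 28.5 and 35.5 in cKO, and Pecam1 at 61.4 and 69.3 against 65.5 and 64.9. Epcam had a peak in WT replicate 2 alone, at 1.04. The called promoters of other cell types numbered 3 and 4 in WT and 4 in each cKO list, and were not the same genes. Their median percentile was 10.9 and 27.7 in WT against 36.8 and 45.5 in cKO. The part of this shift, or of that in the macrophage markers, in the results below was not tested. In bulk samples, a higher share of cells of one type and a more open site in each cell cannot be told apart.

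The promoters of Isg15 and Bst2 are shown because they carry the interferon element itself, and that of Herc6 because its peak had the highest percentile of the 10 promoters and no match in this stretch. The sequences are from RefSeq (GRCm38.p6, the assembly of mm10), run 5′ to 3′ on the gene's strand, and have ISRE matches (GAAA, any 2 bases, GAAA, on either strand) in capitals. Bst2, Herc6, Isg15, Samd9l and Xaf1 had an entry in the promoter table, and Zbp1, Ly6e, Usp18, Parp14 and Ifi27l2a did not.
Isg15 promoter, chr4:156200769-156201068, minus strand: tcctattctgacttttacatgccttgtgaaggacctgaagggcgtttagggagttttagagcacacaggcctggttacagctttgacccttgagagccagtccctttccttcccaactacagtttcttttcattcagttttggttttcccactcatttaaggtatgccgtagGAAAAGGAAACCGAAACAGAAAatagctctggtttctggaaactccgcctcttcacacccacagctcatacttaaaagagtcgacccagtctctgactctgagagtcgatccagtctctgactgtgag
Bst2 promoter, chr8:71537423-71537722, minus strand: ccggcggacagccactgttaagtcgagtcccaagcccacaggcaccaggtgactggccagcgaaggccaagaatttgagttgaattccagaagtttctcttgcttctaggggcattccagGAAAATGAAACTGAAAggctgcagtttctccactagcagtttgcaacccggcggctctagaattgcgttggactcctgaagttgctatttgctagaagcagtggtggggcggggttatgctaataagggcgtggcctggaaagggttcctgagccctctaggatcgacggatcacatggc
Herc6 promoter, chr6:57580742-57581041, plus strand: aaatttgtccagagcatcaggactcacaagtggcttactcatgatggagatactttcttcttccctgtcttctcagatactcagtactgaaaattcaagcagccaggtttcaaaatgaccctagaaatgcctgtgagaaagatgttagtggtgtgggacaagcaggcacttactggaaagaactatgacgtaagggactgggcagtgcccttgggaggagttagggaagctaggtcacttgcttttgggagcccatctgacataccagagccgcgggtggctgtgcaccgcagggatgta
The Isg15 promoter held 3 overlapping ISRE matches from position -78 to -57 relative to the start site, and the Bst2 promoter held 2 overlapping ones from -130 to -115. The Samd9l and Xaf1 promoters had no match. Of 32851 RefSeq promoters of the same length, 3.44% held at least 1 match.

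Peaks inside the gene bodies and flanks give the layout of each locus. Of the 43 regions, 26 were called in all 4 lists, 9 were gained (a peak in both cKO lists and neither WT list), 1 was lost (the reverse) and 7 had another pattern. The background for these calls was 3.72% gained and 7.25% lost over all regions, against 9 and 1 of 43 here. Of 16367 protein-coding genes with a region, 11.1% had at least 1 gained region and 1.88% at least 2. Here, 6 of the 10 genes had at least 1, and Zbp1 (3) and Ly6e (2) had more than 1.

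**Figure D1:**
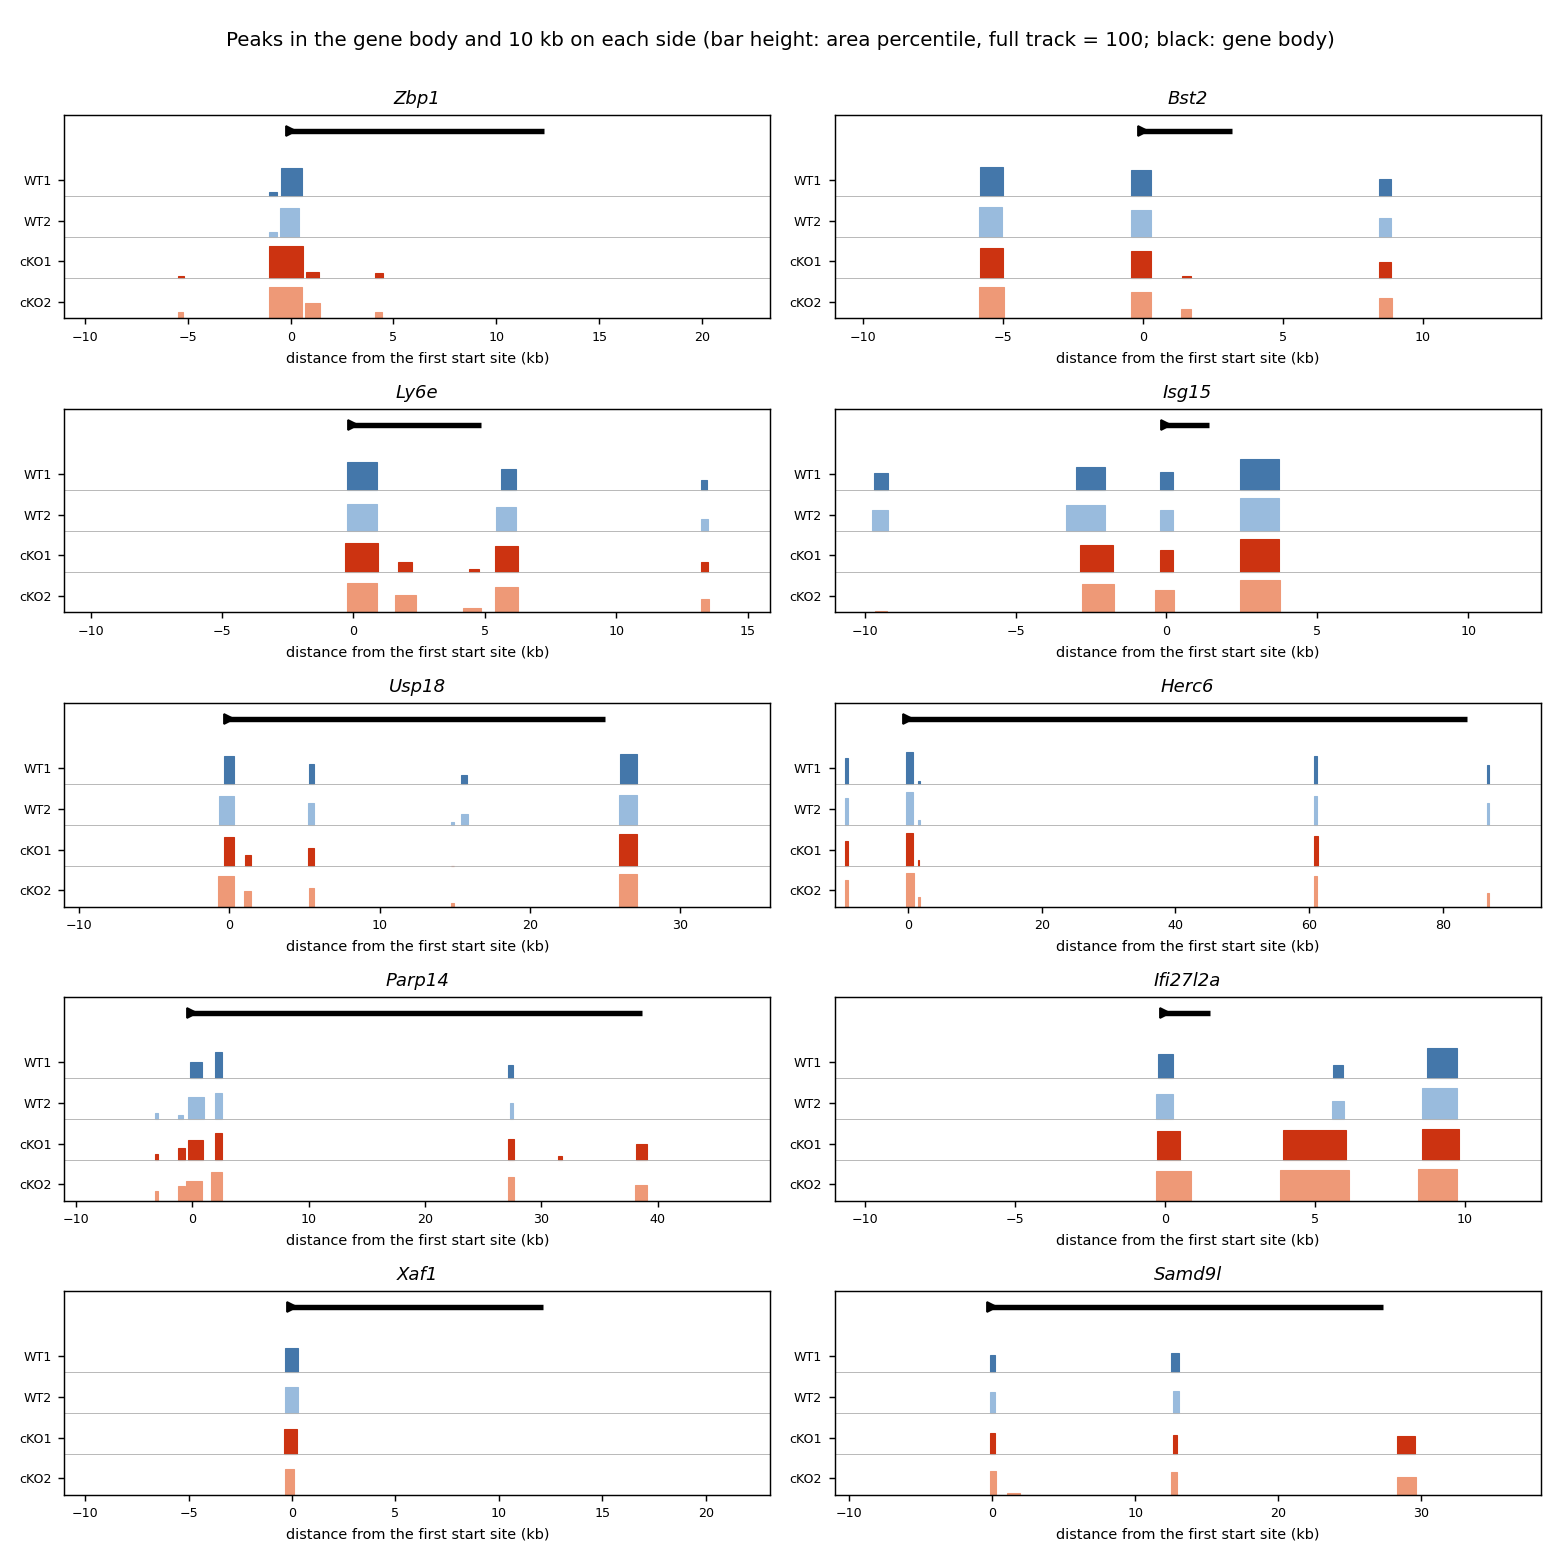
Peaks of the 4 libraries around each gene, plotted by distance from the start site in kb along the direction of transcription. Each coloured bar spans a peak and its height is the area percentile within its list, and the black line is the gene body. The Ifi27l2a window has a peak about 5 kb downstream of the start that is wide in both cKO libraries and narrow in both WT libraries, and the 9 gained regions have bars in both cKO tracks and in neither WT track.

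Accessibility at the promoters was compared first, to ask whether the start sites themselves were open in WT. Each of the 10 genes had 1 promoter region (1 kb before to 100 bp after a start site) called in all 4 lists. At 6 of them both cKO percentiles lay above both WT percentiles, at 4 they overlapped, and at none were both below. The background over 10956 protein-coding promoter regions called in all 4 was 20.8% above and 33.7% below. The median difference between the genotype means was 3.16 percentile points for the 10 promoters and -0.432 for all these promoters. Without WT replicate 2, which ranked above WT replicate 1 at 9 of the 10, the median difference was 6.66, and without cKO replicate 1 it was 4.74. It was 1.99 without WT replicate 1 and 2.17 without cKO replicate 2. The median difference over all promoters was not computed with a library left out.

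The promoter of Zbp1, a sensor of Z-form nucleic acids that triggers cell death, was at 82.2 and 83.6 in WT against 91.3 and 92.0 in cKO (chr2:173218345-173219955, mm10 as throughout). Both cKO values lay above both WT values, and the nearest WT and cKO values were farther apart than the replicates of either genotype. In each WT list the region held 2 peaks, together 1425 and 1284 bp, and in each cKO list 1 peak of 1608 and 1604 bp. The WT percentile is that of the larger peak alone, with areas of 1584 and 1784. It leaves out the smaller peak, with areas of 262 and 290. The single cKO peak had areas of 2299 and 2625, so the percentiles do not cover the same span in the 2 genotypes. The promoter of Ifi27l2a, a small mitochondrial interferon-induced protein, was at 70.9 and 73.7 in WT against 83.7 and 84.6 in cKO (chr12:103442820-103443987). The groups did not overlap, and the length under the peak was 509 and 571 bp in WT and 777 and 1168 bp in cKO. Ifi27l2a has close paralogs next to it, and how reads that match several copies were placed is not given in the sources used here, so its values are uncertain.

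Isg15, Herc6 and Usp18, which belong to ISG15 conjugation, had smaller differences between promoter means than Zbp1 and Ifi27l2a. The promoter of Isg15, the ubiquitin-like modifier itself, was at 53.3 and 61.0 in WT against 62.6 and 64.9 in cKO (chr4:156200563-156201207). The groups did not overlap, but the difference between their means, 6.55, was smaller than the gap between the WT replicates. The promoter of Herc6, the ligase that attaches ISG15 in mouse (chr6:57580661-57581876), was at 93.8 and 95.1 in WT against 96.1 and 95.8 in cKO. The promoter of Usp18, the protease that removes ISG15 and restrains interferon receptor signalling (chr6:121245128-121246235), was at 81.7 and 84.3 in WT against 83.4 and 87.7 in cKO, so its groups overlapped.

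Among the antiviral membrane proteins, the promoter of Bst2, which tethers budding virions to the cell surface (chr8:71537155-71537874), was at 76.5 and 77.0 in WT against 77.1 and 77.1 in cKO. The groups did not overlap, yet the means differed by 0.41 percentile points. The promoter of Ly6e, a GPI-anchored protein that limits virus entry (chr15:74954737-74955973), was at 82.2 and 79.3 in WT against 83.5 and 85.5 in cKO. Its cKO values were above both WT values. The means differed by 3.73, more than the 2.85 between the WT replicates, but the nearest WT and cKO values were only 1.30 apart.

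Values overlapped at the promoters of the other 3 genes. Parp14, a mono-ADP-ribosyltransferase (chr16:35870556-35872066), was at 47.6 and 63.4 in WT against 56.5 and 57.9 in cKO. A further Parp14 region within 1 kb before the start was absent in WT replicate 1, at 12.6 in WT replicate 2 and at 33.1 and 42.4 in cKO. Xaf1, an antagonist of the apoptosis inhibitor XIAP (chr11:72301267-72301921), was at 72.2 and 77.0 in WT against 73.4 and 73.5 in cKO, and this was the only region in its window. Samd9l, an antiviral factor that also limits cell growth (chr6:3399328-3399711), was at 51.2 and 60.7 in WT against 59.4 and 67.4 in cKO. The 4 promoters with the lowest WT means were those of Parp14, Samd9l, Isg15 and Ifi27l2a, and the order of the first 3 could not be told from the spread between replicates.

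The promoter differences depended on the measure that was ranked. With the area divided by the peak's length, 1 of the 10 promoters (Samd9l) was higher in both cKO libraries, at 79.1 and 80.9 in WT against 85.6 and 89.1 in cKO. On this scale the cKO mean was below the WT mean at 4 of the 6 promoters with higher areas, by -9.28 percentile points at Zbp1, -16.5 at Ifi27l2a, -7.36 at Isg15 and -0.245 at Bst2. At all 4 the values of the genotypes overlapped. Zbp1 was at 51.1 and 64.9 in WT against 46.1 and 51.3 in cKO. Ifi27l2a was at 82.2 and 77.8 in WT against 78.3 and 48.6 in cKO, so its cKO replicates lay far apart. Of the overlapping promoters, Xaf1 was 7.12 above WT on this scale, and Parp14 was at 2.47 and 3.08 in WT against 1.36 and 1.28 in cKO. Ranked by the −log10 p-value at the summit, 4 of the 10 promoters were higher in both cKO libraries, and the means differed by 4.27 at Zbp1, 10.1 at Ifi27l2a, -0.193 at Isg15 and -2.70 at Parp14. Peaks of the 26 regions called in all 4 lists were longer in both cKO libraries at 12 regions, against a background of 16.3%, and 10 of those 12 were also higher in area. The area per bp was higher in both cKO libraries at 5 and lower at 6 of the 26, against backgrounds of 22.7% and 29.9%. At Zbp1 and Ifi27l2a the higher areas came with longer peaks and a higher mean rank at the summit, but not with a higher area per bp. At Isg15 the libraries of 1 genotype differed, since the peak was 432 and 439 bp in WT, 440 bp in cKO replicate 1 and 645 bp in cKO replicate 2, with area per bp at 58.5 and 70.3 in WT, 71.4 in cKO replicate 1 and 42.6 in cKO replicate 2.

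**Figure D2:**
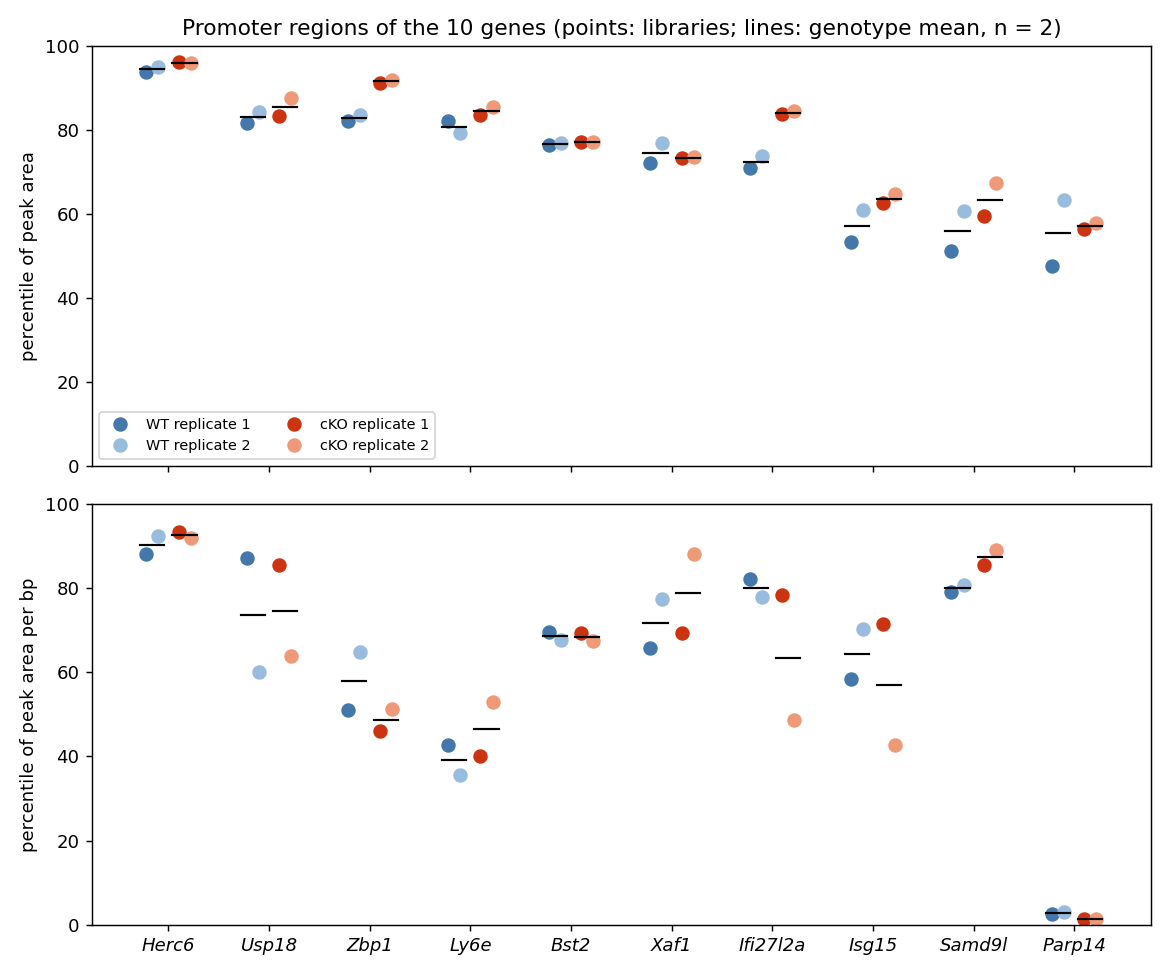
Percentile of the promoter peak of each gene in the 4 libraries, by area in the upper panel and by area per bp in the lower panel, each from 0 to 100. Points are libraries and black lines are genotype means (n = 2), and Zbp1 and Ifi27l2a have the cKO points clearly above the WT points in the upper panel but not in the lower one.

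Outside the own promoters there were 31 regions, of which 8 were gained, 1 was lost, 8 were higher, 2 were lower, 6 overlapped and 6 had another pattern. Over the regions outside all protein-coding promoters in the windows of protein-coding genes, 3.99% were gained. This background leaves out promoters of neighbouring protein-coding genes, which the 31 include, with 0 of them gained. Of the 31 regions, 4 were promoters of neighbouring protein-coding genes and 2 of noncoding genes, so not every difference within a window is one of the named gene. The promoter of AW011738, which shares the Isg15 window, was at 66.4 and 76.1 in WT against 78.6 and 80.8 in cKO. The promoter of the noncoding gene Gm44148, downstream of Usp18, was at 86.5 and 87.7 in WT against 92.7 and 93.0 in cKO. At both sites the groups did not overlap.

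The largest difference in percentile among the 26 regions called in all 4 lists lay next to Ifi27l2a, within an intron of its neighbour Ifi27 (chr12:103437536-103439856). The percentiles were 38.0 and 53.2 in WT against 87.2 and 89.6 in cKO. The peaks covered 350 and 382 bp in WT and 2096 and 2321 bp in cKO, a ratio of 6.03. Per bp, the percentile was 44.5 and 64.8 in WT against 12.4 and 13.8 in cKO, so the cKO peaks were long and low. The promoter of Ifi27 itself was at 86.8 and 89.1 in WT against 89.3 and 90.9 in cKO, where the gap between groups was small beside that between replicates.

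In Parp14, an intronic region 27386 bp into the gene that touches exon 12 (chr16:35843865-35844452) was at 38.6 and 46.9 in WT against 61.3 and 67.6 in cKO. A region 2082 bp into the gene was at 77.8 and 76.4 in WT against 77.0 and 83.5 in cKO, so the groups overlapped there. Downstream of the Ly6e gene end, by 962 bp, a region was at 60.4 and 68.4 in WT against 73.8 and 72.3 in cKO. In Herc6, the intronic region 1640 bp from the start was at 11.1 and 14.8 in WT against 16.7 and 26.2 in cKO, and one 61000 bp from it was at 82.4 and 82.7 in WT against 86.4 and 88.2 in cKO.

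Lower regions were fewer. An intronic Usp18 region 5442 bp from the start was at 59.2 and 64.2 in WT against 52.4 and 53.8 in cKO. A second, with its centre at -9216 bp from the Herc6 start, was at 77.2 and 77.5 in WT against 70.3 and 75.9 in cKO, a gap smaller than that between the cKO replicates. The lost region lay over exon 6 of Usp18 and was at 25.9 and 30.9 in WT. Upstream of Isg15, at -9480 bp from the start, a region at 49.8 and 60.4 in WT was absent in cKO replicate 1 and at 4.4 in cKO replicate 2. Usp18 therefore held a lower and a lost region beside a gained and a higher one.

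Over the 26 regions called in all 4 lists, 14 were higher and 2 lower in both cKO libraries, against 22.2% and 35.1% over all such regions. At 9 of the 26 the region was higher and the difference between the means exceeded the gap between the replicates of either genotype. This held at 17.0% of all regions called in all 4 lists. Among higher regions alone, it was 9 of 14 here and 7617 of 9968 in all. At 6 of the 26 the nearest values of the groups were also farther apart than that gap, against 8.86% of all regions called in all 4 lists. Among higher regions alone, that was 6 of 14 here and 3972 of 9968 in all. The median difference was 2.88 percentile points, against -1.10 over all regions. Ranked by area per bp, 5 were higher and 6 lower. With 1 library left out both calls are easier to meet, and the shares over all regions were not computed for that setting. Without cKO replicate 1, the library with the shortest list, 22 were higher and 4 lower. The higher count was 14 without cKO replicate 2, 17 without WT replicate 1 and 20 without WT replicate 2. The lower count was 4 without WT replicate 1 and 5 without cKO replicate 2, without which there were also 3 lost regions.

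The 9 gained regions were in Zbp1 (3), Ly6e (2), Bst2, Usp18, Parp14 and Samd9l (1 each). Isg15, Herc6, Ifi27l2a and Xaf1 had none. They lay at percentiles 3.70 to 51.6 in cKO, with a median of the cKO means of 29.5 against 19.0 over all gained regions. Their median length was 663 bp, against 309 bp for all gained regions. The second cKO replicate had the higher value at 9 of 9. Their areas ran from 217, near the limit of the peak caller just above 200, to 662, above the cKO list medians of 619 and 636. A WT site just below that limit is not listed.

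The gained region after the gene end of Samd9l, by 1636 bp (chr6:3369960-3371282), was at 51.4 in cKO replicate 1 and 51.6 in cKO replicate 2. Its peaks were 1236 and 1305 bp long, and their area per bp ranked at 1.04 and 0.72, so they were broad and low. The last exon of Parp14, exon 17, held a gained region that also spans the promoter of the noncoding gene Gm49728 (chr16:35832482-35833515), at 45.0 and 45.9. When each list was limited to the peaks above its median area, the Samd9l region was the 1 of the 9 that stayed gained. The Parp14 region at exon 12 also counted as gained then, because its WT peaks were below that limit.

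The share of all genes or of all gained regions with a gained region just downstream of a start was not computed, so the placement here is a description. Within 2500 bp downstream of the start site, 4 genes had a gained region by its centre. In Ly6e it lay 1990 bp from the first start (chr15:74956643-74957440), near the most downstream of its 7 annotated starts, at 26.8 and 51.0. In Usp18 it was intronic, 1210 bp from the start (chr6:121246899-121247333), at 30.0 and 46.2. In Zbp1 it was intronic, 1065 bp from the start (chr2:173217508-173218208), at 15.6 and 43.5. In Bst2 it touched exon 3, 1554 bp from the start (chr8:71535714-71536091), at 5.8 and 26.5. The cKO replicates differed more at these 4 sites than at Samd9l and Parp14.

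The other 3 gained regions lay in Zbp1 and Ly6e. Zbp1 held one in an intron 4303 bp from the start, at 12.8 and 19.6, and one upstream at -5340 bp, at 3.7 and 19.1. The second Ly6e region was in the last exon, at 9.3 and 12.7. All 3 lay below the middle of both cKO lists.

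**Figure D3:**
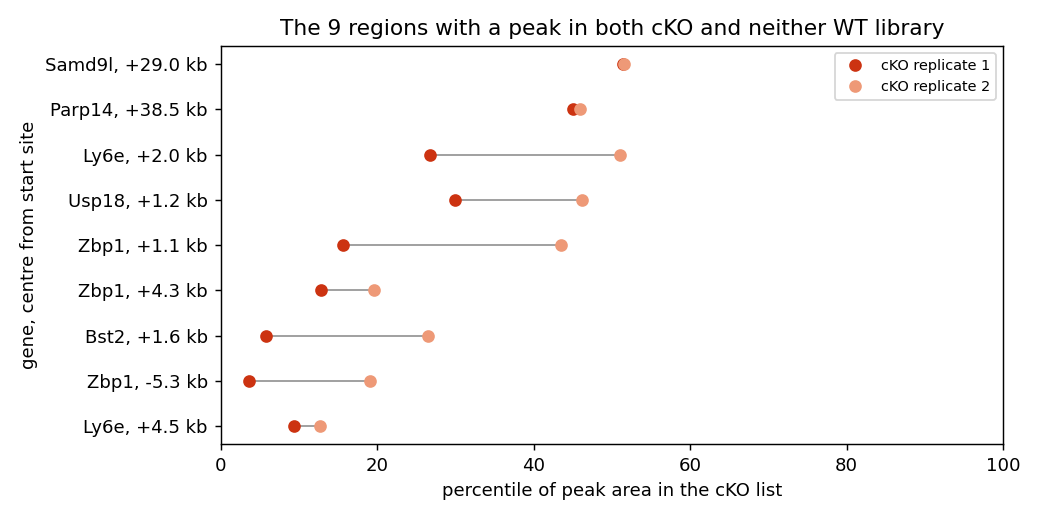
Area percentile of the 9 gained regions in cKO replicate 1 and cKO replicate 2, each row being a region named by its gene and the distance of its centre from the start site in kb. The points for Samd9l and Parp14 lie together near the middle of the list, and those of Ly6e (+2.0 kb), Usp18, Zbp1 (+1.1 kb) and Bst2 lie apart.

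Sequence under the summits was compared between regions that were open in WT and those that were gained. For each region, 201 bases around the summit of its strongest peak were read, and letters were searched on both strands. An ISRE match was present in 5 of the 10 promoter regions called in all 4 lists (Zbp1, Bst2, Isg15, Usp18 and Parp14), against 2.35% of 10956 such promoter regions. It was also present at Ly6e downstream of the gene, in the Herc6 and Parp14 introns described above, and at the Ifi27 promoter. Of the 9 gained regions, 0 had a match, against 4.30% of 2653 gained regions in all. The 3 sites away from promoters that held the element, and 3 gained sites without it, are shown with ISRE matches in capitals on the gene's strand.
Ly6e, downstream of the gene, chr15:74960872-74961072: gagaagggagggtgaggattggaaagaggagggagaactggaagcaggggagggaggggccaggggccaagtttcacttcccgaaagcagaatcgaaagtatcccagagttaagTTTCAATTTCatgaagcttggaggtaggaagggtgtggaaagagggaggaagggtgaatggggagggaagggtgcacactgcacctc
Herc6, intron, chr6:57582475-57582675: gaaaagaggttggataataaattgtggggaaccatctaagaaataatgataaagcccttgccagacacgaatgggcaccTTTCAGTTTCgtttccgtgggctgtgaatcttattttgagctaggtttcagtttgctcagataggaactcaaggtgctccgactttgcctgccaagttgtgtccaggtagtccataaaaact
Parp14, intron, minus strand, chr16:35869217-35869417: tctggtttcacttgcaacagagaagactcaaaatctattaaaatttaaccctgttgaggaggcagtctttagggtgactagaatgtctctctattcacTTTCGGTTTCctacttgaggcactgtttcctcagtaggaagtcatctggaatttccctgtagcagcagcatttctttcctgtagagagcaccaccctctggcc
Usp18, gained, chr6:121247071-121247271: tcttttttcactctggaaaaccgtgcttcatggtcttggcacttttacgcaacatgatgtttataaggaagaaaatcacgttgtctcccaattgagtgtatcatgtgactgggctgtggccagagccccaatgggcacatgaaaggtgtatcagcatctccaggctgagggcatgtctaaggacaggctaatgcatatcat
Bst2, gained, minus strand, chr8:71535785-71535985: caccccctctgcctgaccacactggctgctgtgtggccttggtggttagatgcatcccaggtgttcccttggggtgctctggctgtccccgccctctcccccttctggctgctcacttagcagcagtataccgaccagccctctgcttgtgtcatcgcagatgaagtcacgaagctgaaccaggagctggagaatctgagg
Samd9l, gained, minus strand, chr6:3370153-3370353: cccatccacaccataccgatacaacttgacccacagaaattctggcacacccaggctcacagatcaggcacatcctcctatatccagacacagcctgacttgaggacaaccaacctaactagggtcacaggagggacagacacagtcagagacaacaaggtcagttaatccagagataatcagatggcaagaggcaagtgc
The ISRE in Parp14 lay 2.5 bases from the summit, and those in Ly6e and Herc6 lay 18.5 and 16.5 bases from it. The letters TTCNNNGAA of the gamma-activated site (GAS) matched in 3 of the 10 promoter regions, against 4.23% of such regions. They matched in 0 of the 9 gained regions, against 5.65% of all gained regions. The letters TGANTCA of AP-1 were in 1 of the 9 gained regions, against 27.0% of all gained regions. GAGGAA, the core bound by the myeloid factor PU.1, was in 0 of the 10 promoter regions and in 14 of the 31 others, against 22.4% of promoter regions and 39.8% of all regions. A match is a description of letters, and the letters of different motifs can overlap.

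Peak length summed over the windows joins both kinds of change. The 10 windows held 19106 and 21365 bp under peaks in WT and 27533 and 31550 bp in cKO, or 20236 ± 1597 bp in WT and 29542 ± 2840 bp in cKO (SD, n = 2 each). Both cKO sums were above both WT sums. The ratio of cKO to WT was 1.46, whereas the length under all peaks of the genome had a ratio of 0.923 and the median window of 16041 protein-coding genes one of 0.925. Samd9l had the highest ratio at 2.90, then Ifi27l2a at 2.24, Zbp1 at 2.16, Parp14 at 1.88, Ly6e at 1.69 and Bst2 at 1.18, each with more bp in both cKO libraries than in both WT libraries. The Ifi27l2a window includes the region in the Ifi27 intron, with 350 and 382 bp in WT and 2096 and 2321 bp in cKO. The Samd9l window includes an intronic peak of 901 bp in cKO replicate 2 alone, at percentile 5.14. Over all protein-coding windows with a region, 14.2% had more bp in both cKO libraries and 38.4% fewer. Xaf1 had fewer, with a ratio of 0.838. Usp18 at 1.06, Isg15 at 0.943 and Herc6 at 0.937 overlapped between the genotypes.

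**Figure D4:**
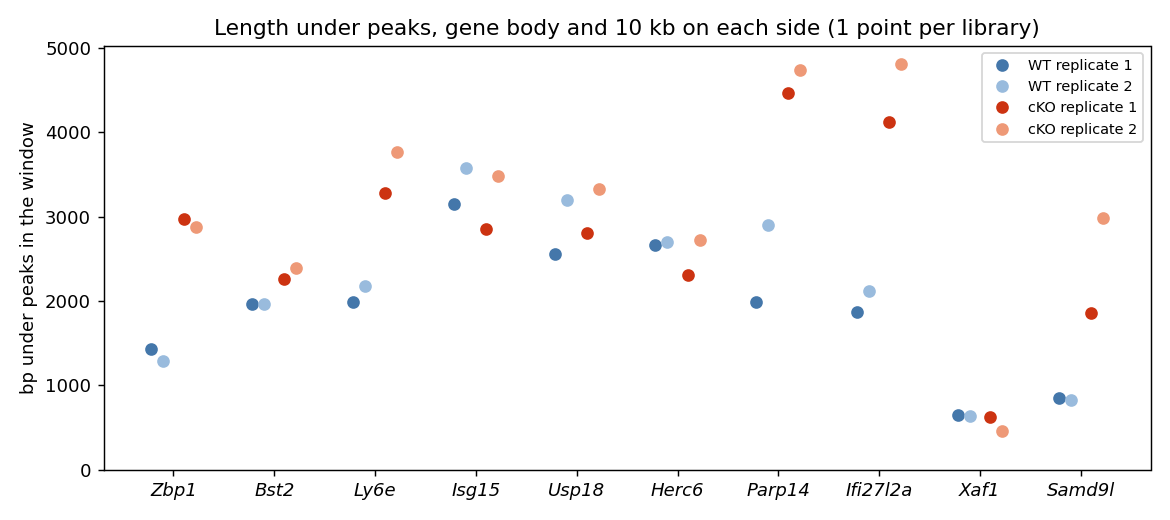
Length under peaks in bp, from 0, in the gene body and 10 kb on each side of each gene, with 1 point per library. The 2 cKO points lie above both WT points for Zbp1, Bst2, Ly6e, Parp14, Ifi27l2a and Samd9l, and below both for Xaf1.

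Other interferon-stimulated genes were set beside the 10 as a list of 88 genes, 87 of which had a region. Of their 357 regions, 45 were gained (12.6%) and 15 lost (4.20%), and 31 of the genes had a gained region. Of their 209 regions called in all 4 lists, 61 were higher (29.2%) and 44 lower (21.1%). The same shares at the 10 genes were 20.9% gained and 53.8% higher, but the 10 were chosen on these values, so the 2 lists were not compared by a test. Ifi44 (5 of 5 regions gained), Mx1 (5 of 11), Ifi44l (4 of 4) and Trim30a (4 of 10) had the most, followed by Ifi47 and Rsad2 (3 of 10 each) and Trim25 (3 of 13). Unlike any of the 10, Ifi44 and Ifi44l had no promoter peak in WT and had one in both cKO libraries, at 72.5 and 74.5 for Ifi44 and at 24.5 and 17.8 for Ifi44l.

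The genes of ISG15 conjugation are Isg15, the activating enzyme Uba7, the conjugating enzyme Ube2l6, the ligase Herc6 and the protease Usp18. Of their 24 regions, 1 was gained and 2 were lost, and of the 18 called in all 4 lists 9 were higher and 3 lower, against 22.2% and 35.1% over all regions. Of the 24 regions, 15 are those of Isg15, Herc6 and Usp18 already given, with 6 of the 9 higher ones. The Ube2l6 promoter was at 72.2 and 80.4 in WT against 80.5 and 93.9 in cKO, and the Uba7 promoter was at 68.6 and 74.0 in WT against 64.0 and 71.8 in cKO. A list of 6 genes that carry the interferon signal (Ifnar1, Ifnar2, Jak1, Tyk2, Stat2 and Irf9) had 43 regions, of which 1 was gained and 3 lost. Of the 24 called in all 4 lists, 2 were higher and 11 lower (8.33% and 45.8%, against 22.2% and 35.1% over all regions). The shares gained (2.33%) and lost (6.98%) stood beside 3.72% and 7.25% over all regions. The promoters of Ifnar1, Ifnar2, Tyk2 and Stat2 were lower in both cKO libraries, and those of Jak1 and Irf9 overlapped.

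**Figure D5:**
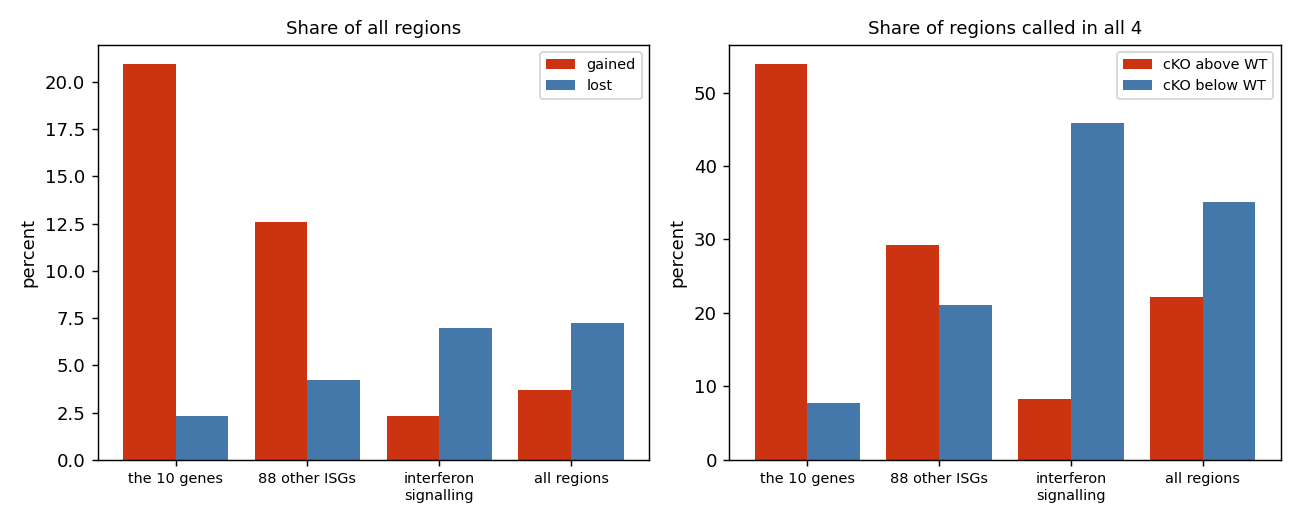
Percent of regions that were gained or lost (left, of all regions) and percent with both cKO percentiles above or below both WT percentiles (right, of regions called in all 4 lists), for the 10 genes, 88 other interferon-stimulated genes (ISGs), 6 interferon signalling genes and all regions. Bars start at 0, and the share gained is 20.9% for the 10 genes, 12.6% for the other ISGs and 3.72% for all regions.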

How the data were processed

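ATAC-seq peak lists of 2 WT and 2 cKO BMDM libraries, labelled as biological replicates, were used. The authors aligned reads to mm10 with Bowtie2 (version 2.5.1 in the submitters' processing notes) and ran Genrich with default parameters on every library by itself, without pooling. The deposited signal of a peak is its area, the deposited −log10 p-value is that at the summit, and the deposited score is the area per bp, capped at a maximum, where 82.6% to 87.2% of each list's peaks stood. The q-value column was −1 throughout, and the summit offset gave the summit position. Read filters were not given in the sources used here. Read depth is unknown, so no interval for counting error is given. Areas were ranked within each list, and peaks overlapping by at least 1 bp were merged (Python with pandas 2.3.3 and numpy 2.4.6). Where a library had several peaks in a region, the highest percentile was used. Genes and starts came from GENCODE vM21 (mm10). With 2 libraries per genotype, a two-sided exact permutation test cannot go below 0.333, and none was used. The genes and lists were chosen with earlier results of these data known, and all regions of the 10 genes are counted. One gene of the interferon-stimulated and signalling lists is not reported here and was left out of their counts. The rule for calls was run on simulated lists with large built-in differences. That run does not tell how often unchanged regions or small differences would be called.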

Additional observations from a re-analysis of the deposited data

How the results depend on the processing

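The cKO minus WT difference in covered length (9306 bp) stayed positive under every alternative that could change it. The rule for calls, the merging gap, the ranked measure and the promoter width do not enter it. Those settings left it at 9306 bp by construction. With peaks at or below the median area of their list dropped, 2 gained regions at 2 genes were left, the difference in covered length was 6074.5 bp and the median promoter difference was 7.46 percentile points. Percentiles were then taken within the shorter lists, which stretches every difference by construction, and the Parp14 promoter dropped out. With lists of equal length there were 2 lost regions, and the median promoter difference was 5.15. Ranked by area per bp, the median promoter difference was 1.09 (without Parp14, whose top promoter region on this scale was not called in all 4 lists), 1 own promoter and 5 shared regions were higher, and 6 shared regions were lower. This ranking turned the promoter differences of Zbp1 (-9.28), Ifi27l2a (-16.5), Isg15 (-7.36) and Bst2 (-0.245) to the opposite sign, though at each the per-bp values of the genotypes overlapped. Ranking by the summit −log10 p-value turned that of Isg15 (-0.193). Among promoters whose groups overlapped, the sign also turned at Xaf1 by area per bp (7.12) and at Parp14 by the summit p-value (-2.70). With a flank of 2 kb, 1 shared region was lower. Fewer peaks enter under the stricter limit and the smaller flank by construction. No cause of these changes was tested. Leaving out 1 library at a time gave 9 to 12 gained regions at 6 to 6 genes, 1 to 3 lost regions, 14 to 22 higher and 2 to 5 lower shared regions, 6 to 10 own promoters higher or gained, a median promoter difference of 1.99 to 6.66 and a covered-length difference of 7297.5 to 11314.5 bp. Without WT replicate 2, 10 own promoters were higher or gained and the median difference was 6.66, and without cKO replicate 1 it was 4.74. The replicate numbers are shared by both genotypes but nothing in the labels pairs the cultures. With the replicate number as a block (added after seeing the data), 18 shared regions were higher and 2 lower within both numbers. Read depth was not known, so a site absent from a list may lie just under the caller's limit.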
